A study of Arabidopsis thaliana with 15 samples.

Results

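The 32 B-box (BBX) zinc finger genes of Arabidopsis, BBX1 to BBX32, were followed through 33977 features counted in each of 15 plants. The rule takes the family by gene identifier and uses no measured value, although the family was picked with earlier results of these data known. AT4G15250 and AT3G21880 were numbered BBX9 and BBX10 as the TAIR10.1 annotation names them, and AT2G47890, which that annotation leaves without a BBX symbol, was taken as BBX11 from its place in the family list. All plants were Col-0, grown in 12-h days and frozen at bolting, and there were 5 groups of 3 plants. Gen1 memory plants were transgene-null segregants of an MSH1-RNAi line that showed the altered msh1 phenotype. The paper describes it as slower growth, delayed flowering and pale leaves. The part of delayed flowering in the differences given here was not tested. Gen1 nonmemory plants were transgene-null full sibs with an unaltered phenotype. The methods trace the Gen1 memory and nonmemory plants of the methylation experiment to the T2 progeny of a single T1 plant. They state that the rest of the same tissue samples went to RNA extraction for RNA-seq. Gen5 memory plants were a single lineage. The paper describes a single Gen1 memory sib that was self-crossed, without the transgene, to start the later generations. Gen1 WT and Gen5 WT plants came from RNAi transformation events scored negative and were raised alongside the memory plants. The sample labels call the tissue whole rosette, whereas the methods describe whole plants. No hour of harvest was found in the sources used here.

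A B-box is a zinc-binding fold through which these proteins contact other proteins. Members with a CCT domain, such as CONSTANS (CO, BBX1), act mostly in the photoperiodic control of flowering, where CO activates the florigen gene FT in long days. Members without it act mostly in photomorphogenesis, the light-grown form of development, by assisting or opposing the transcription factor HY5, and the ubiquitin ligase COP1 marks many of them for breakdown in darkness. Transcripts of many BBX genes cycle over the day. The family is divided here by structure into BBX1 to BBX6 and BBX7 to BBX13, which carry a pair of B-boxes and a CCT domain, BBX14 to BBX17 with a single B-box and a CCT domain, BBX18 to BBX25 with a pair of B-boxes only, and BBX26 to BBX32 with a single B-box only.

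Each plant had between 77169986 and 79202824 counts on genes, so depth differed little between plants. MSH1, the target of the lost transgene, had 793 ± 18.2 normalized counts in Gen1 WT, 781 ± 32.2 in nonmemory, 876 ± 11.9 in Gen1 memory, 716 ± 56.4 in Gen5 WT and 817 ± 160 in Gen5 memory (SD, n = 3 each) and was not called in any comparison. Normalized counts were obtained with TMM factors computed on all 15 plants together. Markers of other tissues were low: root markers summed to 0 to 6.77 normalized counts per plant with 4 of 6 at 0 in every plant, and flower markers to 65.8 to 133 with LFY, which defines the young flower, at 0 in every plant. By their sum, flower markers were lower in memory than in WT in both generations. They summed to 117 to 130 in Gen1 WT and 74.0 to 82.3 in Gen1 memory, and to 102 to 133 in Gen5 WT and 83.4 to 92.2 in Gen5 memory. Nonmemory plants, at 65.8 to 111, overlapped with Gen1 memory. Of the 3 tested in Gen1 WT vs. memory, AG and SEP1 were called lower and SEP3 higher in memory. None of those tested was called against nonmemory or in Gen5. Whole rosette markers were present throughout and summed to 1406930 to 1780220 in the 9 WT and nonmemory plants and 2043110 to 2418710 in the 6 memory plants. Of these markers, LHCB1.1, LHCB2.1 and RCA lay higher in all memory plants than in all others, whereas RBCS1A, CA1 and SBPASE overlapped. The ratio of Gen1 memory to Gen1 WT means was 17.6, 19.8 and 1.17 for the former and 1.06, 0.78 and 0.89 for the latter. In the same order, the ratio of Gen1 memory to nonmemory means was 5.18, 8.8 and 1.56, then 1.104, 1.097 and 1.07. That of Gen5 memory to Gen5 WT means was 4.11, 7.89 and 1.63, then 1.27, 1.48 and 1.22. By mean, CA1 and SBPASE were thus lower in memory than in Gen1 WT only. The part of these markers in the differences given here was not tested. In whole tissue, fewer cells of a type and less RNA per cell cannot be told apart.

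Of the 32 genes, 28 passed the expression filter in the memory comparisons. BBX9, BBX10, BBX23 and BBX26 did not: no plant had more than 5.21 normalized counts of any of them, and BBX26 had none in any plant. Another 2 members, BBX30 and BBX31, passed only where memory plants were in the fit. Counts of calls against controls are therefore given for the other 26, and counts over 28 include these 2. A gene was called where edgeR gave an adjusted p below 0.05 together with a log2 fold change beyond 0.5 in either direction, and log2 fold changes are memory over control (± SE). Where 3 values stand in a row, they are those against nonmemory, Gen1 WT and Gen5 WT in this order. In Gen1 nonmemory vs. memory, the test called 19 of the 26 (73.1%), with 15 higher and 4 lower in memory, beside 23.4% of all tested genes (11.1% higher and 12.2% lower). In Gen1 WT vs. memory, 18 passed (69.2%), with 13 higher and 5 lower, beside 20% of all tested genes (9.52% higher and 10.5% lower). In Gen5 WT vs. memory, 18 passed (69.2%), with 15 higher and 3 lower, beside 27% of all tested genes (13.3% higher and 13.7% lower). The median absolute log2 fold change of the 26 was 1.02, 1.03 and 0.87 in these comparisons, beside 0.29, 0.27 and 0.33 over all tested genes.

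The Gen1 comparisons share the 3 Gen1 memory plants, whereas the comparison with nonmemory and that in Gen5 have no plant in common. Their memory plants nevertheless trace to the same Gen1 sibs. Of the 26, 17 were called in both of these last, which is 89.5% of the first list and 94.4% of the second, beside 77.8% and 67.2% of all genes called. All 17 had the same direction in both, as had 99.9% of all genes called in both. In all 3 memory comparisons, 11 of the 26 were called higher in memory (42.3%) and 3 were called lower (11.5%), beside 5.76% and 6.05% of all genes. All 6 memory plants lay above all 9 WT and nonmemory plants in 13 of the 26 genes (BBX5, BBX6, BBX8, BBX11, BBX12, BBX16, BBX18, BBX21, BBX22, BBX24, BBX25, BBX28 and BBX29), against 11.7% of all genes. They lay below all 9 in 5 (BBX4, BBX7, BBX14, BBX17 and BBX20), against 13.5% of all genes. The other 8 overlapped. Another annotated gene overlaps 13 of the 32 members, BBX8, BBX11, BBX12, BBX14, BBX17, BBX20, BBX24 and BBX25 among them. The gene over BBX12 (192 bp) had group means of 2205 to 2878 normalized counts, and that over BBX8 (56 bp) had 1022 to 1299. That over BBX25 (48 bp) had 1605 to 1889 in the control groups, and 2368 and 2329 in Gen1 and Gen5 memory. All these means were above any value of BBX25 itself. The gene over BBX11 (327 bp) had 11.3 to 20.2. Those over BBX14, BBX17, BBX20 (4 bp) and BBX24 had no group mean above 1.32. The library kit does not mark strand, so counts in the overlapping stretches are uncertain.

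**Figure D1:**
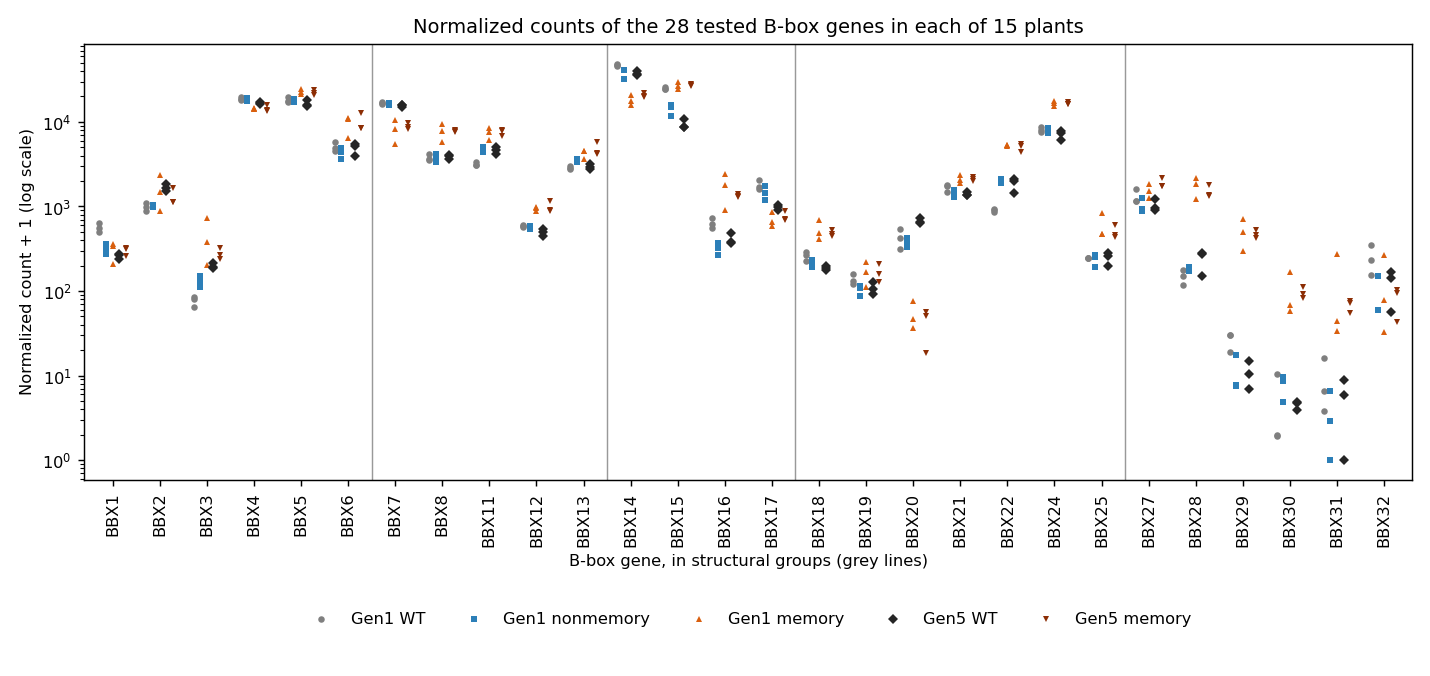
Normalized counts plus 1 (log scale) of the 28 B-box genes that passed the filter, one point per plant, with colour and shape for the 5 groups and grey lines between structural groups. BBX28 to BBX31 stand well above the control plants in all 6 memory plants and BBX20 well below, while BBX4, BBX5 and BBX14 are among the most abundant members in every group.

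Per kb of annotated exon, BBX5 (COL4), a repressor of flowering, had the highest level of the family in every group but Gen1 WT, where BBX14 was higher. BBX15 and then BBX24 followed it in both memory groups, with 15488 and 11317 normalized counts per kb in Gen1 memory and 15769 and 11281 in Gen5 memory. In nonmemory and Gen5 WT plants those places were held by BBX14 and BBX4. At the other end, BBX20 ranked last of the 28 in both memory groups, and BBX29, BBX30 and BBX31 filled the last 3 places in every WT and nonmemory group. Summed per kb, the whole family stood at 91807 ± 2510 in Gen1 WT, 80712 ± 5480 in nonmemory, 97058 ± 5634 in Gen1 memory, 74832 ± 1432 in Gen5 WT and 97979 ± 4438 in Gen5 memory (SD, n = 3). The sums of BBX18 to BBX25 lay between 15652 and 17495 per kb in the 6 memory plants and between 6689 and 8521 in the 9 others. BBX24 (11317) and BBX22 (3046) made up most of the mean sum of 16796 in Gen1 memory, whereas BBX20 fell and BBX19 was not called. The sums of BBX26 to BBX32 lay between 2093 and 3508 in memory plants and between 741 and 1129 in the others. The sums of BBX1 to BBX6 lay between 35757 and 41703 in memory plants and 31338 and 37957 in the others, and those of BBX7 to BBX13 and BBX14 to BBX17 overlapped as well.

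**Figure D2:**
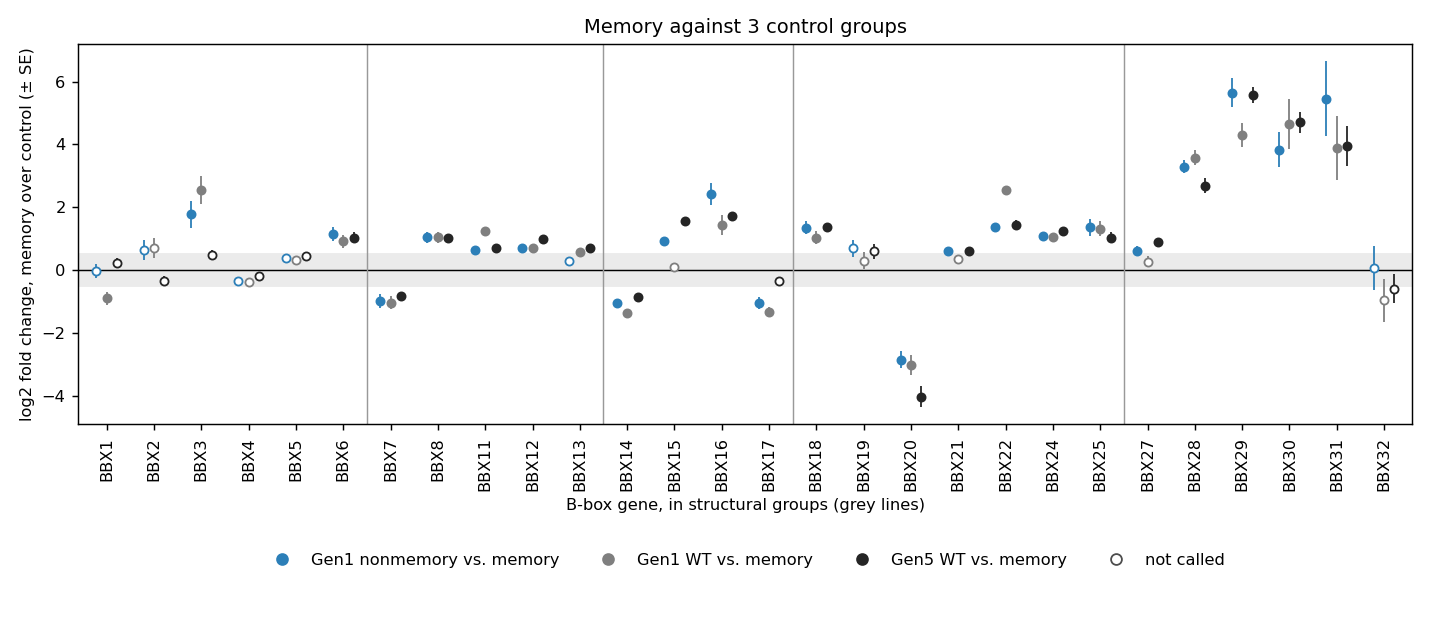
Log2 fold change (± SE) of memory over Gen1 nonmemory, Gen1 WT and Gen5 WT for the 28 B-box genes tested, with filled points called and open points not called. The grey band spans the fold-change threshold of 0.5 on either side of 0. BBX28 to BBX31 have the highest values, between 2.69 and 5.65, and BBX20 has the lowest, between -4.03 and -2.86.

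The largest rises of the family were those of 4 members with a single B-box and no CCT domain. Of these, BBX30 and BBX31 passed the filter only where memory plants were in the fit. BBX28, BBX29, BBX30 and BBX31 were higher in memory than in each control group, BBX27 was higher in 2 of the 3 comparisons, BBX32 was not called, and BBX26 was not detected. BBX28 and BBX29 are partners of HY5, and BBX30 and BBX31 are microProteins that bind CO and bring in the corepressor TOPLESS. The genes lie at chr4:13675537-13677055 (BBX28, plus strand), chr5:22114304-22115539 (BBX29, minus strand), chr4:8708841-8709482 (BBX30, plus strand) and chr3:7708833-7709933 (BBX31, minus strand) of TAIR10.1. Their promoters are shown because these 4 genes rose together, as the 300 bases before the annotated gene start, 5′ to 3′ on the gene's strand, read from the RefSeq copy of the TAIR10.1 genome. They span chr4:13675237-13675536, chr5:22115540-22115839, chr4:8708541-8708840 and chr3:7709934-7710233. Capitals mark copies, on either strand, of the CCA1-binding site AAAAATCT in BBX28 and of the G-box CACGTG in BBX30.
BBX28: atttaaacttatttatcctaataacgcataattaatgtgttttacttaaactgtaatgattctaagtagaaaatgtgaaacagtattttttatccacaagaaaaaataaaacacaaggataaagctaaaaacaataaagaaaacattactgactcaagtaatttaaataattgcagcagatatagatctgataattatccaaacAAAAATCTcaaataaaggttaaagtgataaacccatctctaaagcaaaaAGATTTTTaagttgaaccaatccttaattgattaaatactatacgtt
BBX29: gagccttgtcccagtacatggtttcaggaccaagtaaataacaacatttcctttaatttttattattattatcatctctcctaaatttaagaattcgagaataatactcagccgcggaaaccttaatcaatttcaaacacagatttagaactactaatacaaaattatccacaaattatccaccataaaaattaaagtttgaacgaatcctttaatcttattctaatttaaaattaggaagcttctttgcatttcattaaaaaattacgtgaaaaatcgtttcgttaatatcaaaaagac
BBX30: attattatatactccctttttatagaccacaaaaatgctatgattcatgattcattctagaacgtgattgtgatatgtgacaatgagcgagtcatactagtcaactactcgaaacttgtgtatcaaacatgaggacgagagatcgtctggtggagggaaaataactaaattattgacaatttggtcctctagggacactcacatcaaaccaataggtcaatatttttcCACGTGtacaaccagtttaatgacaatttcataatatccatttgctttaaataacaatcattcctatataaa
BBX31: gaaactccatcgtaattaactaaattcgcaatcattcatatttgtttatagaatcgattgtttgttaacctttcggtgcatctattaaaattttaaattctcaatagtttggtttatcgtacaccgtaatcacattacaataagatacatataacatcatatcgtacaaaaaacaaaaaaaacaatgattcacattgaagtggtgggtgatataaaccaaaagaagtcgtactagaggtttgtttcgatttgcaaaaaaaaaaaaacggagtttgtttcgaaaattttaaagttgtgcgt
The G-box, a site of HY5 and PIF proteins, the CCA1-binding site and the evening element AAAATATCT, both tied to the clock, and the CRT/DRE core CCGAC, tied to the cold response, were searched on both strands. BBX28 held 2 copies of the CCA1-binding site, and BBX30 held 1 G-box, 72 bases before the gene start. The windows of BBX29 and BBX31 held none of the 4 motifs, so no motif of the 4 was common to these promoters. A match is only a description of the letters in this window.

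BBX29 had 29.2, 18.2 and 29.1 normalized counts in the Gen1 WT plants, 6.58, 16.5 and 6.77 in nonmemory, 702, 502 and 297 in Gen1 memory, 13.8, 9.48 and 5.89 in Gen5 WT, and 418, 520 and 459 in Gen5 memory. Every memory plant was far above every other plant, and the lowest of them, at 297, belonged to Gen1. Memory over control, the log2 fold change was 5.65 ± 0.47 against nonmemory (SE, edgeR adjusted p = 0.000167), 4.30 ± 0.38 against Gen1 WT (adjusted p = 0.000273) and 5.57 ± 0.27 in Gen5 (adjusted p = 6.15e-06). The ratio of group means was 50.4, 19.6 and 47.9.

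BBX28 had 152, 117 and 175 normalized counts in Gen1 WT, 176, 191 and 173 in nonmemory, 2160, 1852 and 1237 in Gen1 memory, 278, 274 and 151 in Gen5 WT, and 1365, 1805 and 1341 in Gen5 memory. All memory plants lay above all other plants, while the control groups overlapped one another and so did the memory groups. On the log2 scale the fold change was 3.29 ± 0.21 against nonmemory (edgeR adjusted p = 7.19e-05), 3.58 ± 0.25 against Gen1 WT (adjusted p = 0.000108) and 2.69 ± 0.24 in Gen5 (adjusted p = 9.8e-05).

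BBX30 and BBX31 were close to absent outside memory plants. BBX30 had 0.941, 0.958 and 9.38 normalized counts in Gen1 WT, 7.52, 3.87 and 8.71 in nonmemory, 167, 57.1 and 67.1 in Gen1 memory, 2.96, 3.79 and 3.92 in Gen5 WT, and 92.1, 111 and 81.7 in Gen5 memory. For BBX30 the log2 fold change was 3.84 ± 0.56, 4.65 ± 0.80 and 4.70 ± 0.33 against nonmemory, Gen1 WT and Gen5 WT (edgeR adjusted p = 0.00168, 0.00449 and 3.16e-05). BBX31 had 2.82, 15.3 and 5.63 in Gen1 WT, 5.64, 0 and 1.93 in nonmemory, 274, 43.4 and 33.0 in Gen1 memory, 7.89, 0 and 4.9 in Gen5 WT, and 71.5, 74.2 and 54.5 in Gen5 memory. Both genes were higher in each memory plant than in any other plant, and Gen1 memory plant 1 stood well above its group in both. The log2 fold change of BBX31 was 5.46 ± 1.19, 3.88 ± 1.01 and 3.95 ± 0.63 (edgeR adjusted p = 0.00949, 0.0239 and 0.00188). Without Gen1 memory plant 1, BBX31 fell to 3.84 against nonmemory (adjusted p = 0.00827) and 2.28 against Gen1 WT (adjusted p = 0.0318), and BBX30 to 3.19 and 4.02. Against Gen1 WT, the call of BBX31 was lost without WT plant 1 (3.48, adjusted p = 0.0826) or WT plant 3 (3.68, adjusted p = 0.0782), and its value was 4.76 without WT plant 2. The value of BBX31 was 6.74 without nonmemory plant 1, 4.72 without Gen5 WT plant 1 and 3.36 without Gen5 WT plant 2, and that of BBX30 was 6.51 without Gen1 WT plant 3. At so few control counts, the size of these folds is loosely fixed. BBX9 lies 284 bp from BBX30 and BBX10 486 bp from BBX31 in the genome, and neither neighbour exceeded 5.21 normalized counts in any plant.

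BBX27 had mean normalized counts of 1308 ± 255 in Gen1 WT, 1023 ± 197 in nonmemory, 1553 ± 283 in Gen1 memory, 1029 ± 162 in Gen5 WT and 1891 ± 234 in Gen5 memory (SD, n = 3). It was called in Gen5 (0.89 ± 0.14, edgeR adjusted p = 0.00153) and against nonmemory (0.61 ± 0.17, adjusted p = 0.0261). Against nonmemory the call was lost without memory plant 2 (0.46, adjusted p = 0.0819), nonmemory plant 2 (0.52, adjusted p = 0.0944) or nonmemory plant 3 (0.54, adjusted p = 0.0917). BBX32, a repressor of photomorphogenesis, spread widely within groups, from 154 to 350 in Gen1 WT, 59.2 to 151 in nonmemory, 32 to 265 in Gen1 memory, 54.9 to 166 in Gen5 WT and 42.3 to 102 in Gen5 memory. With all plants and no block it was not called in any memory comparison. Without Gen1 memory plant 1, its highest memory plant, it had a log2 fold change of -2.14 against Gen1 WT (adjusted p = 0.0186).

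**Figure D3:**
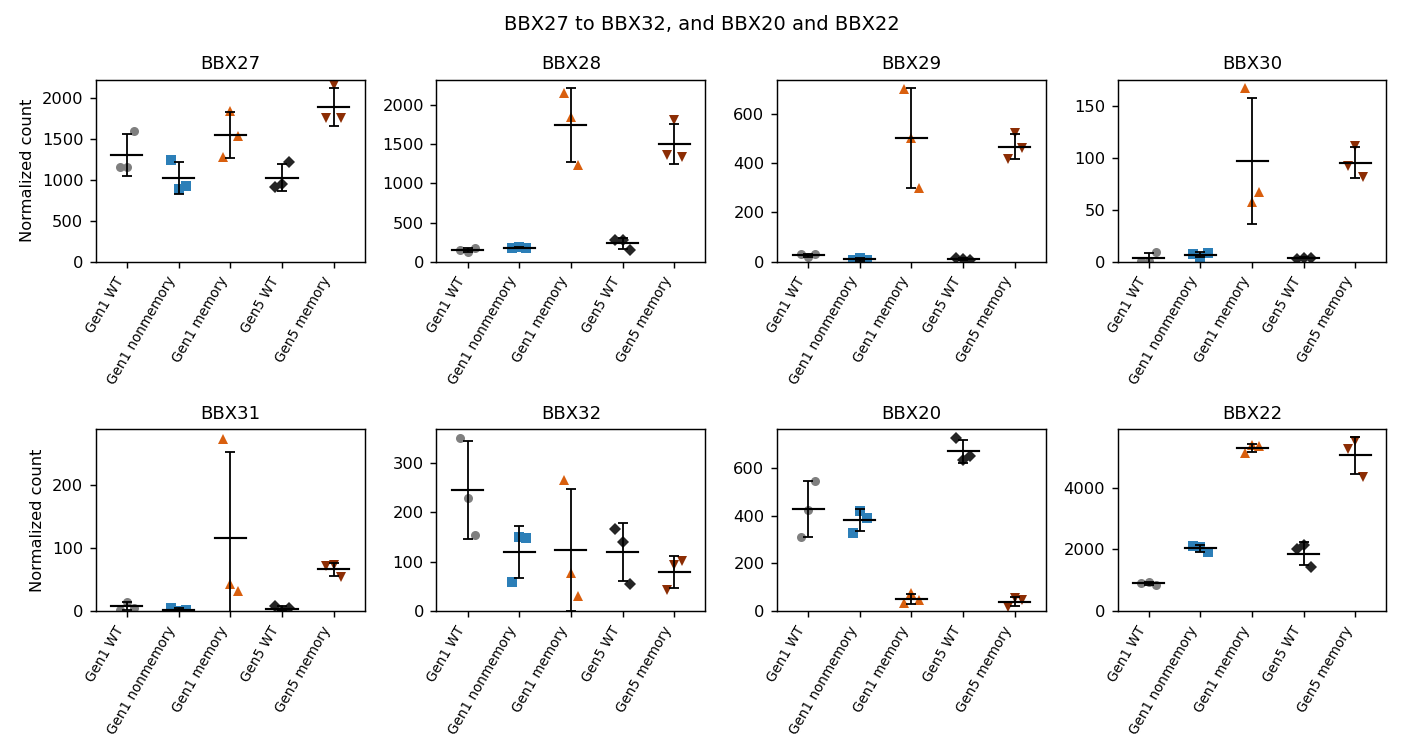
Normalized counts of BBX27 to BBX32, BBX20 and BBX22 in each plant of the 5 groups. Points are plants, wide bars are means and narrow bars are SDs over 3 plants, cut at the foot of the axis where they would pass below 0. BBX28, BBX29 and BBX22 separate memory plants from all others and BBX20 separates them in the opposite direction, while Gen1 memory plant 1 sets the wide error bars of BBX30 and BBX31.

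Among the members with a pair of B-boxes and no CCT domain, BBX18, BBX22, BBX24 and BBX25 were higher in memory in all 3 comparisons and BBX20 was lower in all 3. BBX21 was higher in 2, BBX19 was not called, and BBX23 was not tested. In light signalling, BBX20, BBX21 and BBX22 promote photomorphogenesis together with HY5, whereas BBX18, BBX19, BBX24 and BBX25 oppose it. Members that rose thus included both sides of this division.

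BBX20 (BZS1, chr4:18204631-18206684, minus strand), which also takes part in brassinosteroid responses, had the largest fall of the family. It had 311, 425 and 543 normalized counts in Gen1 WT, 329, 419 and 391 in nonmemory, 35.4, 75.1 and 45.8 in Gen1 memory, 724, 633 and 647 in Gen5 WT, and 17.3, 55.1 and 49.2 in Gen5 memory. The highest memory plant had 75.1 and the lowest other plant 311. Its log2 fold change was -2.86 ± 0.28 relative to nonmemory, -3.02 ± 0.33 relative to Gen1 WT and -4.03 ± 0.33 relative to Gen5 WT (edgeR adjusted p = 0.000319, 0.000654 and 7.37e-05), and the mean of the control group was 7.29, 8.18 and 16.5 times that of memory. The interaction test did not call the difference between generations (-1.02 ± 0.50, adjusted p = 0.274).

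BBX22 (LZF1, chr1:29566863-29568931, plus strand) showed 3 levels. It had 920, 936 and 862 normalized counts in Gen1 WT, 2126, 2081 and 1914 in nonmemory, 5130, 5382 and 5350 in Gen1 memory, 2025, 2137 and 1444 in Gen5 WT, and 5261, 5500 and 4357 in Gen5 memory. Gen1 WT lay lowest, nonmemory and Gen5 WT lay in the middle and overlapped, and both memory groups lay above. The fitted log2 fold change was 1.38 ± 0.07 over nonmemory, 2.56 ± 0.07 over Gen1 WT and 1.44 ± 0.16 over Gen5 WT (edgeR adjusted p = 3.12e-05, 1.88e-05 and 0.000271).

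BBX24 (STO, chr1:1828340-1829983, minus strand) was the most abundant member of the group. Its promoter is shown because it holds an evening element (capitals, read on the gene's strand, 52 bases before the gene start), a word found in 12.5% of the 32 B-box windows and 2.79% of the 27443 windows of all protein-coding genes. The window spans chr1:1829984-1830283 of TAIR10.1.
BBX24: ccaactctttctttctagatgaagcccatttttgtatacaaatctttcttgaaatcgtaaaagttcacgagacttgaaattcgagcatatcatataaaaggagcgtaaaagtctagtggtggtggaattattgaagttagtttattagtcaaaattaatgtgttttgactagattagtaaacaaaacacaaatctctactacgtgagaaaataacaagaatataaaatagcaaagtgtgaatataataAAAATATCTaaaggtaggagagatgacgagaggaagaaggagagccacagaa
It had 8817, 8125 and 7676 normalized counts in Gen1 WT, 8389, 7915 and 7412 in nonmemory, 16880, 17591 and 15606 in Gen1 memory, 7802, 7424 and 6056 in Gen5 WT, and 16409, 17337 and 16171 in Gen5 memory. The control groups overlapped one another, as did the memory groups, with a wide gap between them. In edgeR the log2 fold change was 1.08 ± 0.08, 1.04 ± 0.09 and 1.24 ± 0.10 against nonmemory, Gen1 WT and Gen5 WT (edgeR adjusted p = 0.000107, 0.000229 and 7.47e-05).

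BBX25 (STH, chr2:13381767-13383470, plus strand), the closest relative of BBX24, had 244, 243 and 244 normalized counts in Gen1 WT, 190, 249 and 266 in nonmemory, 847, 475 and 476 in Gen1 memory, 278, 197 and 260 in Gen5 WT, and 434, 596 and 461 in Gen5 memory. Memory plants did not overlap with the others, and Gen1 memory plant 1 was the highest. Its log2 fold change was 1.36 ± 0.26, 1.31 ± 0.24 and 1.03 ± 0.18 (edgeR adjusted p = 0.00552, 0.00557 and 0.00302). BBX18 (chr2:9126263-9127987, plus strand) had 287, 267 and 227 in Gen1 WT, 190, 204 and 232 in nonmemory, 693, 483 and 407 in Gen1 memory, 197, 188 and 178 in Gen5 WT, and 476, 519 and 441 in Gen5 memory. No memory plant overlapped with another plant here either. BBX18 had a log2 fold change of 1.34 ± 0.21, 1.03 ± 0.21 and 1.36 ± 0.13 (edgeR adjusted p = 0.00228, 0.0092 and 0.000131).

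BBX21 was at 1679 ± 178 normalized counts in Gen1 WT, 1415 ± 138 in nonmemory, 2121 ± 230 in Gen1 memory, 1406 ± 61.4 in Gen5 WT and 2125 ± 98.9 in Gen5 memory (SD, n = 3). It was called against nonmemory (0.59 ± 0.11) and in Gen5 (0.61 ± 0.07) but not against Gen1 WT (0.35 ± 0.11), and the call against nonmemory was lost without memory plant 2, with a log2 fold change of 0.50. BBX19, which lowers FT by binding CO, stayed between 87.1 and 220 in all plants, with log2 fold changes of 0.70 ± 0.27, 0.29 ± 0.27 and 0.60 ± 0.24 that were not called (edgeR adjusted p = 0.0788, 0.438 and 0.0766). BBX19 was called against nonmemory with all 15 plants in one fit (0.69, adjusted p = 0.0399) and by DESeq2 (0.70, adjusted p = 0.0473). Without Gen1 memory plant 3, BBX19 reached 0.92 against nonmemory (adjusted p = 0.0147), and without Gen5 memory plant 1 it reached 0.75 in Gen5 (adjusted p = 0.0478).

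In BBX7 to BBX13, 4 members were higher and 1 was lower in memory. BBX8, BBX11 and BBX12 rose in all 3 comparisons and BBX13 in 2, BBX7 fell in all 3, and BBX9 and BBX10 were not tested. BBX7 (COL9) and BBX8 (COL10) are both known as repressors of FT and of flowering, and here they moved in opposite directions. BBX7 (chr3:2441565-2444532, plus strand) had 16456, 16778 and 17240 normalized counts in Gen1 WT, 16696, 15788 and 15842 in nonmemory, 5433, 8355 and 10490 in Gen1 memory, 15954, 15833 and 15163 in Gen5 WT, and 8194, 8641 and 9611 in Gen5 memory. The 9 control plants lay close together, and the Gen1 memory plants were spread over the lower range. Memory over control, the log2 fold change was -0.99 ± 0.21, -1.05 ± 0.21 and -0.82 ± 0.08 (edgeR adjusted p = 0.00824, 0.0087 and 0.000193).

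BBX8 (chr5:19561319-19563832, minus strand) had 4137, 3670 and 3499 normalized counts in Gen1 WT, 3716, 3348 and 4200 in nonmemory, 5742, 7822 and 9562 in Gen1 memory, 3905, 4021 and 3600 in Gen5 WT, and 7766, 7607 and 8068 in Gen5 memory. Groups of controls were alike and every memory plant exceeded them. On the log2 scale the fold change was 1.04 ± 0.18, 1.04 ± 0.17 and 1.03 ± 0.07 (edgeR adjusted p = 0.00338, 0.00407 and 3.37e-05). Its promoter is shown because it held 3 copies of the evening element (capitals, AAAATATCT or its reverse complement), the most of the 32 windows. The window spans chr5:19563833-19564132 of TAIR10.1.
BBX8: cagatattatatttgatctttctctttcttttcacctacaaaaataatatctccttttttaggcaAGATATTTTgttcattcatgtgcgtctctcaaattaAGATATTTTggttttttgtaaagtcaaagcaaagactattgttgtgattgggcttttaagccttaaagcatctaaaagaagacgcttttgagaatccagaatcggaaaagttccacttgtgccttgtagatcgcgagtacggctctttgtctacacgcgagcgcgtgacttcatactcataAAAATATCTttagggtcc
The same word occurred in the windows of BBX3, BBX13 and BBX24. The G-box occurred in 4 of the 32 windows (BBX5, BBX9, BBX10 and BBX30, 12.5% against 7.09% of all windows), the CCA1-binding site in 5 (BBX11, BBX22, BBX26, BBX27 and BBX28, 15.6% against 7.94%) and the CRT/DRE core in 4 (BBX2, BBX4, BBX6 and BBX25, 12.5% against 13.9%).

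BBX11 (chr2:19607996-19610287, plus strand), which promotes photomorphogenesis, had 3126, 3336 and 3073 normalized counts in Gen1 WT, 5009, 4948 and 4453 in nonmemory, 6164, 7627 and 8376 in Gen1 memory, 4698, 5029 and 4165 in Gen5 WT, and 7731, 8131 and 6733 in Gen5 memory. As with BBX22, Gen1 WT lay below the other control groups. Its log2 fold change was 0.63 ± 0.12, 1.23 ± 0.11 and 0.71 ± 0.10 (edgeR adjusted p = 0.00465, 0.00036 and 0.00102). BBX12 had a mean between 497 and 584 in the control groups, 935 ± 55.4 in Gen1 memory and 984 ± 157 in Gen5 memory, with log2 fold changes of 0.71, 0.69 and 0.99, all called. BBX13 had log2 fold changes of 0.29, 0.58 and 0.69 and was called against the WT groups only.

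The 4 members with a single B-box and a CCT domain did not share a direction. BBX14 fell and BBX16 rose in all 3 comparisons, BBX17 fell in both Gen1 comparisons, and BBX15 rose against nonmemory and Gen5 WT. BBX14 (chr1:25708175-25710989, minus strand) had 46332, 47300 and 48741 normalized counts in Gen1 WT, 41469, 40876 and 32021 in nonmemory, 15933, 20967 and 17535 in Gen1 memory, 36548, 35707 and 40011 in Gen5 WT, and 20493, 22120 and 19487 in Gen5 memory. All memory plants were below all others. The fitted log2 fold change was -1.07 ± 0.14, -1.38 ± 0.11 and -0.84 ± 0.09 (edgeR adjusted p = 0.00109, 0.000223 and 0.000221).

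BBX16 (chr1:27778984-27780809, plus strand) had 622, 558 and 728 normalized counts in Gen1 WT, 322, 367 and 268 in nonmemory, 2437, 1781 and 899 in Gen1 memory, 379, 369 and 484 in Gen5 WT, and 1336, 1394 and 1308 in Gen5 memory. Memory plants lay above all others, closely grouped in Gen5 and widely spread in Gen1. In edgeR the log2 fold change was 2.42 ± 0.35, 1.44 ± 0.33 and 1.72 ± 0.12 (edgeR adjusted p = 0.00152, 0.0143 and 3.57e-05). Against Gen1 WT the call was lost without WT plant 1 (1.42, adjusted p = 0.0515) or WT plant 2 (1.35, adjusted p = 0.0592).

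BBX15 (chr1:8933716-8935544, minus strand) had 26225, 24463 and 24675 normalized counts in Gen1 WT, 15696, 14915 and 11773 in nonmemory, 26776, 29416 and 24515 in Gen1 memory, 8754, 8637 and 10699 in Gen5 WT, and 27431, 27786 and 26955 in Gen5 memory. Gen1 WT thus stood with the memory plants and apart from the other controls. Memory over control, the log2 fold change was 0.93 ± 0.13 against nonmemory and 1.56 ± 0.10 in Gen5 (edgeR adjusted p = 0.0012 and 2.59e-05), and 0.11 ± 0.09 against Gen1 WT (adjusted p = 0.392). BBX17 (chr1:18174373-18176389, minus strand) had 1681, 1591 and 2029 in Gen1 WT, 1743, 1448 and 1186 in nonmemory, 661, 850 and 582 in Gen1 memory, 990, 911 and 1034 in Gen5 WT, and 683, 888 and 704 in Gen5 memory. Gen5 WT lay just above the memory plants and below the other controls. On the log2 scale the fold change was -1.06 ± 0.18 and -1.33 ± 0.16 in Gen1 (edgeR adjusted p = 0.0035 and 0.00105) and -0.36 ± 0.12 in Gen5, under the fold-change threshold (adjusted p = 0.0452).

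In BBX1 to BBX6, the CO clade, BBX6 rose in all 3 memory comparisons, BBX3 rose in both Gen1 comparisons, BBX1 (CO) fell against Gen1 WT only, and BBX2, BBX4 and BBX5 were not called. BBX6 (COL5, chr5:23355337-23356989, plus strand), which can promote flowering when overexpressed, had 4861, 4572 and 5867 normalized counts in Gen1 WT, 4857, 4390 and 3689 in nonmemory, 11166, 10788 and 6511 in Gen1 memory, 5131, 5413 and 4004 in Gen5 WT, and 8445, 12641 and 8398 in Gen5 memory. Gen1 memory plant 3 was the lowest memory plant, still above all others. Its log2 fold change was 1.14 ± 0.21, 0.91 ± 0.21 and 1.03 ± 0.18 (edgeR adjusted p = 0.00457, 0.0146 and 0.00289). Against Gen1 WT the call was lost without WT plant 1 (0.87, adjusted p = 0.0545) or WT plant 2 (0.84, adjusted p = 0.0607).

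CO (chr5:5170162-5173085, minus strand) had 558, 501 and 643 normalized counts in Gen1 WT, 356, 303 and 276 in nonmemory, 205, 344 and 355 in Gen1 memory, 238, 264 and 275 in Gen5 WT, and 324, 317 and 262 in Gen5 memory. Gen1 WT was higher than every other plant, and both memory groups overlapped with nonmemory and Gen5 WT. The fitted log2 fold change was -0.05 ± 0.22 against nonmemory (edgeR adjusted p = 0.89), -0.90 ± 0.21 against Gen1 WT (adjusted p = 0.0166) and 0.23 ± 0.15 in Gen5 (adjusted p = 0.246). The call against Gen1 WT was lost without WT plant 3 (-0.81, adjusted p = 0.0559). The annotated antisense gene AT5G15845 overlaps CO and BBX2, and AT5G15843 overlaps CO. The longest overlap was 1967 bp in CO and 1807 bp in BBX2, which is the whole annotated span of BBX2. AT5G15845 had group means of 124 to 166 normalized counts. Since the library kit does not mark strand, reads of these pairs cannot be told apart where they overlap, and the values of CO and BBX2 are uncertain to that extent.

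BBX3 (COL2, chr3:487069-489467, minus strand) had 64.0, 79.5 and 84.5 normalized counts in Gen1 WT, 126, 151 and 110 in nonmemory, 728, 382 and 205 in Gen1 memory, 187, 190 and 216 in Gen5 WT, and 238, 319 and 266 in Gen5 memory. Gen1 memory plant 1 was far above the rest, and Gen1 memory overlapped with Gen5 WT. In edgeR the log2 fold change was 1.77 ± 0.43 and 2.54 ± 0.44 in Gen1 (edgeR adjusted p = 0.0145 and 0.00495) and 0.48 ± 0.16 in Gen5, under the fold-change threshold (adjusted p = 0.0443). Without Gen1 memory plant 1 it was 1.18 against nonmemory (adjusted p = 0.0199), where the call was lost without nonmemory plant 1 (1.75, adjusted p = 0.0503) or nonmemory plant 3 (1.67, adjusted p = 0.057). In Gen5 it was 0.57 and called without memory plant 1 (adjusted p = 0.0392). AT3G02370 and AT3G02390 overlap BBX3 on the opposite strand, so its counts are uncertain in the same way.

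BBX2 (COL1) ranged from 872 to 2378 normalized counts in Gen1 memory, which enclosed all its other values. With all plants, edgeR did not call it in any memory comparison, whereas DESeq2 called it against Gen1 WT (0.70, adjusted p = 0.0451). With edgeR it was called without Gen1 memory plant 3, at 0.94 against nonmemory (adjusted p = 0.00629) and 0.99 against Gen1 WT (adjusted p = 0.0113). Without Gen5 memory plant 2 it was called at -0.58 in Gen5 (adjusted p = 0.00239). BBX4 (COL3), a promoter of photomorphogenesis, and BBX5 separated memory plants from the others by small steps. BBX4 had means from 16601 to 18832 in the control groups and 14375 ± 327 and 14381 ± 1299 in the memory groups, with log2 fold changes of -0.35, -0.38 and -0.20. BBX5 had means from 16489 to 18266 in the control groups and 22808 ± 1283 and 22285 ± 1642 in the memory groups, with log2 fold changes of 0.37, 0.33 and 0.44. All these fold changes were under the threshold, except that BBX5 reached 0.52 in Gen5 without WT plant 3 (adjusted p = 0.00797).

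The control groups differed from one another in part of the family. In Gen1 WT vs. nonmemory, 6 of 26 tested members were called (23.1%), against 7.71% of all tested genes (2.82% higher and 4.89% lower in nonmemory). BBX22 (1.17 ± 0.06), BBX3 (0.76 ± 0.19) and BBX11 (0.59 ± 0.06) were higher in nonmemory, and BBX16 (-0.997 ± 0.15), CO (-0.87 ± 0.13) and BBX15 (-0.83 ± 0.11) were lower. BBX3 kept this call without WT plant 3 only. It was lost without WT plant 1 (0.65), WT plant 2 (0.79), nonmemory plant 1 (0.78), nonmemory plant 2 (0.63) or nonmemory plant 3 (0.86), and with all 15 plants in one fit (0.76, adjusted p = 0.168). BBX29, not called in this comparison at -1.35 ± 0.44 (adjusted p = 0.0683), was called without nonmemory plant 2 (-1.92, adjusted p = 0.0439).

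In Gen1 WT vs. Gen5 WT, 10 of 26 members were called (38.5%), against 10.7% of all tested genes (4.69% higher and 6.05% lower in Gen5 WT). BBX3 (1.37 ± 0.16), BBX22 (1.04 ± 0.14), BBX2 (0.76 ± 0.11), BBX20 (0.64 ± 0.18) and BBX11 (0.54 ± 0.07) were higher in Gen5 WT. BBX15 (-1.43 ± 0.09), BBX29 (-1.39 ± 0.39), CO (-1.14 ± 0.12), BBX17 (-0.86 ± 0.10) and BBX16 (-0.64 ± 0.14) were lower. With all 15 plants in one fit, the calls of BBX2 (adjusted p = 0.0585), BBX20 (adjusted p = 0.146) and BBX16 (adjusted p = 0.118) were lost. The number called ranged down to 6, without Gen5 WT plant 2. The call of BBX20 was lost without Gen1 WT plant 1 (0.46) or 2 (0.64) or Gen5 WT plant 1 (0.58), 2 (0.68) or 3 (0.66). That of BBX29 was lost without Gen1 WT plant 1 (-1.28) or 3 (-1.28) or Gen5 WT plant 2 (-1.37) or 3 (-1.13). That of BBX16 was lost without Gen5 WT plant 1 (-0.58) or 2 (-0.57), and that of BBX11 without Gen5 WT plant 2 (0.47). BBX28 (0.66) and BBX18 (-0.48), not called with all plants, were called at 0.90 without Gen5 WT plant 3 and at -0.57 without Gen1 WT plant 3. Generation and growing batch cannot be told apart here.

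Between memory plants of Gen1 and Gen5, edgeR called 0 of the 28 members and 0 of 19716 genes (0% of all tested genes), with 0 members and 353 genes at an unadjusted p under 0.05, and DESeq2 called 0 members and 6 genes. Members' log2 fold changes of Gen5 over Gen1 memory had a median absolute value of 0.11, with the widest error in BBX31 (-0.81 ± 0.74). Gen1 memory plants varied more than those of any other group, with a median coefficient of variation over members of 27.1%, beside 9.99% to 12.7% elsewhere, so differences between memory generations were measured with less precision.

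The interaction test asked whether the memory effect against WT differed between generations, and called 5 of 28 members (17.9%), 3 with a higher and 2 with a lower effect in Gen5, against 5.24% of all tested genes (2.36% and 2.89%). The effect in Gen5 minus that in Gen1 was 1.44 ± 0.14 in BBX15 (edgeR adjusted p = 0.000435), -1.12 ± 0.18 in BBX22 (adjusted p = 0.00481), 0.96 ± 0.21 in BBX17 (adjusted p = 0.0194), 1.12 ± 0.27 in CO (adjusted p = 0.0291) and -2.06 ± 0.49 in BBX3 (adjusted p = 0.0299). Each of the 5 was also called between Gen1 WT and Gen5 WT, whose plants are part of the interaction test. None was called between the memory generations, where 0 of 19716 genes were called. BBX15 and BBX22 kept the call with each of 12 plants left out, and BBX17 lost it without Gen5 WT plant 2 (0.91, adjusted p = 0.0603). CO lost it without Gen1 WT plant 1 (1.14) or 3 (1.03), Gen5 WT plant 1 (1.07), 2 (1.14) or 3 (1.17), or Gen5 memory plant 1 (1.07) or 2 (1.09). BBX3 lost it without Gen1 WT plant 1 (-1.95) or 2 (-2.10), Gen5 WT plant 1 (-2.10), 2 (-2.09) or 3 (-1.99), or Gen5 memory plant 1 (-1.96) or 3 (-2.04), and moved to -1.47 without Gen1 memory plant 1. BBX14 (0.52, adjusted p = 0.0513), BBX11 (-0.52, adjusted p = 0.0826) and BBX2 (-1.05, adjusted p = 0.154) were not called with all plants. They were called without Gen1 memory plant 2 (BBX14, 0.64), Gen1 memory plant 1 (BBX11, -0.63) and Gen1 memory plant 3 (BBX2, -1.33).

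**Figure D4:**
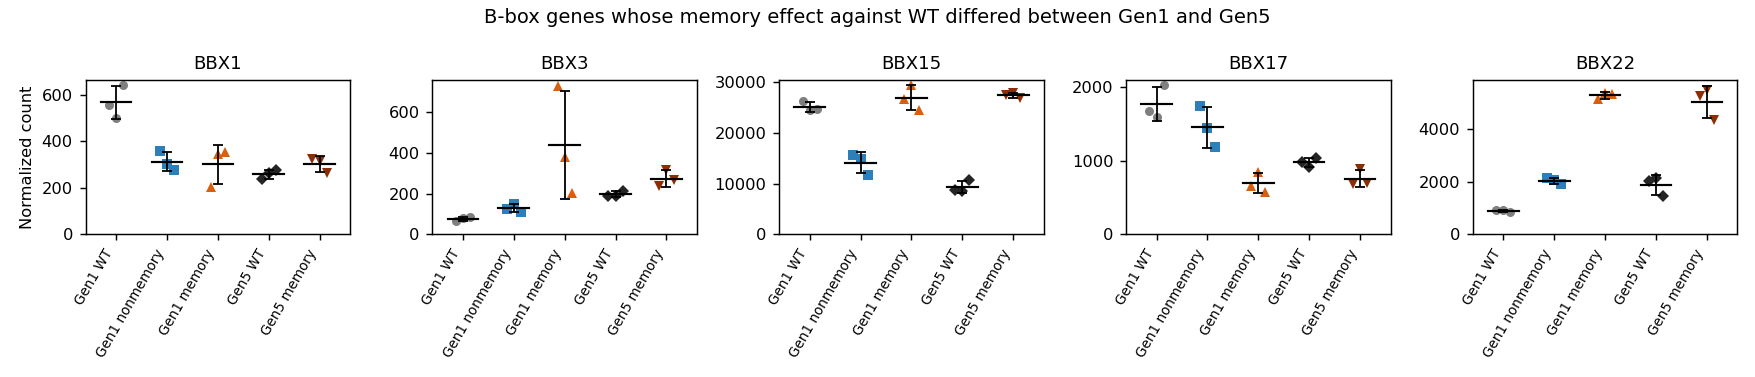
Normalized counts of BBX1, BBX3, BBX15, BBX17 and BBX22, the members called in the interaction test, in each plant of the 5 groups. Points are plants, wide bars are means and narrow bars are SDs over 3 plants. Gen1 WT and Gen5 WT lie apart in each panel (25121 and 9363 for BBX15), whereas the memory groups of Gen1 and Gen5 overlap.

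Genes that act with B-box proteins were taken from a pair of fixed lists. Of 10 genes of the CO module, 5 were higher and 4 lower in memory than in nonmemory, 4 were higher and 4 lower than in Gen1 WT, and 5 were higher and 3 lower in Gen5, where 9 were tested. The shares of all tested genes called in these comparisons were 23.4%, 20% and 27%. FT, the florigen, fell from 451 ± 74.6, 289 ± 27.2 and 238 ± 41.3 normalized counts in Gen1 WT, nonmemory and Gen5 WT to 30.9 ± 10.6 in Gen1 memory and 30.4 ± 8.47 in Gen5 memory. Its log2 fold change was -3.21 ± 0.26, -3.85 ± 0.27 and -2.95 ± 0.27 (edgeR adjusted p = 0.000154, 0.000109 and 0.00011), whereas CO, its activator, was lower only against Gen1 WT. TSF, the closest relative of FT, was lower in both Gen1 comparisons (-3.89 and -4.59) and was not tested in Gen5. SOC1, a floral integrator downstream of FT, was higher against nonmemory and in Gen5 (0.57 and 0.51) and was not called against Gen1 WT (0.45). GI, a clock-regulated gene upstream of CO, had log2 fold changes of 1.52, 1.51 and 1.69, and FKF1, which forms a light-dependent complex with GI, had 2.34, 2.50 and 2.62. CDF3, one of the DOF factors that repress CO and FT, had 3.08, 2.94 and 3.70, and CDF1 rose as well (0.54, 1.41 and 0.98). Their relative CDF2 fell (-1.24, -1.23 and -0.80), and CDF5 was not called (0.11, 0.46 and 0.24). TPL, which encodes the corepressor TOPLESS recruited by BBX30 and BBX31, was lower in memory, with log2 fold changes of -0.55, -0.69 and -0.70.

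Of 12 genes of the COP1/HY5 module, 1 was higher and 3 lower in memory in each Gen1 comparison, and 2 were higher and 3 lower in Gen5, beside the same shares of all tested genes (23.4%, 20% and 27%). HY5 was not called, with log2 fold changes of -0.54 ± 0.19, -0.27 ± 0.15 and -0.26 ± 0.14 (edgeR adjusted p = 0.0591, 0.211 and 0.174). COP1 was not called either, with 0.37 ± 0.07, 0.14 ± 0.07 and 0.498 ± 0.09, all under the fold-change threshold. The 3 genes that fell in each comparison were CHS, CHI and F3H, flavonoid enzymes and known targets of HY5. CHS lay lower in all memory plants than in all others, whereas CHI and F3H overlapped. CHI and F3H had 456 and 401 normalized counts in Gen1 memory plant 3, against 420 and 332 in nonmemory plant 1. Nonmemory plants spread widely, from 3178 to 12087 for CHS and 332 to 1219 for F3H. CHS had log2 fold changes of -2.60 ± 0.70, -2.89 ± 0.59 and -2.33 ± 0.23 and F3H -1.55 ± 0.50, -1.50 ± 0.31 and -1.60 ± 0.25. SPA1, a partner of COP1, was higher in all 3 (1.26, 0.87 and 1.05). The antisense gene AT3G51238 overlaps F3H, so its value is uncertain.

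**Figure D5:**
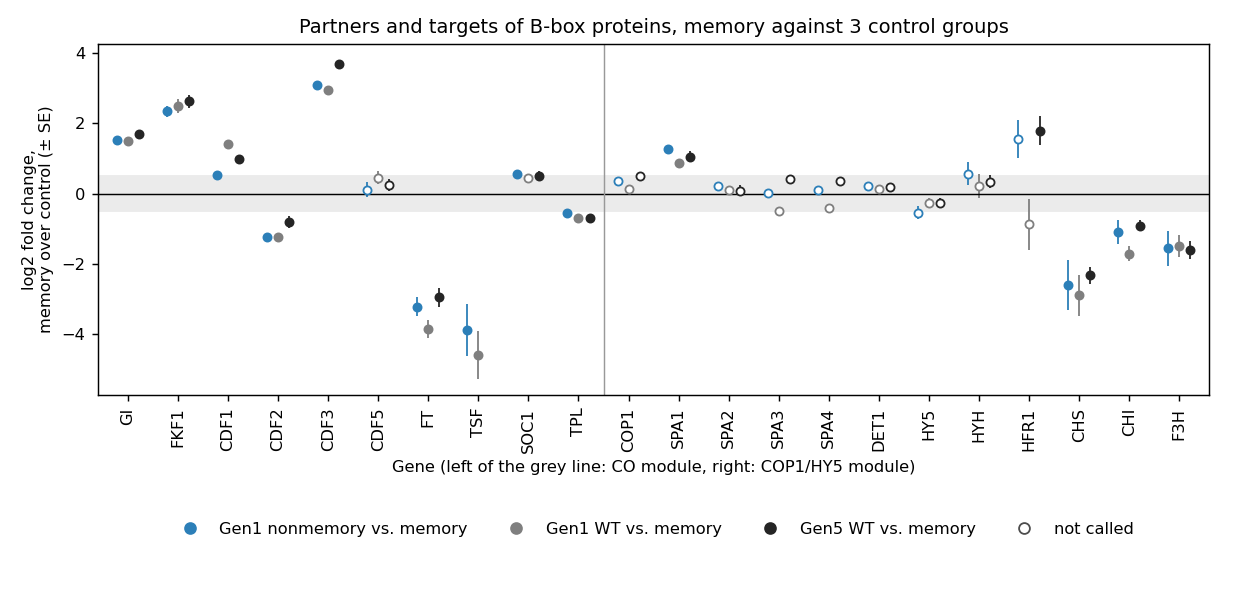
Log2 fold change (± SE) of memory over Gen1 nonmemory, Gen1 WT and Gen5 WT for 10 genes of the CO module (left of the grey line) and 12 genes of the COP1/HY5 module (right), with filled points called and open points not called. The grey band spans the threshold of 0.5 on either side of 0. FT, CHS and F3H lie below 0 and GI, FKF1 and CDF3 above 0 in all 3 comparisons, while HY5 and COP1 are open points. TSF was not tested in Gen5.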

How the data were processed

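RNA-seq libraries (TruSeq v2, which does not mark strand) were made from 15 plants. The authors aligned reads with STAR 2.7.0a, kept uniquely mapped reads and obtained gene counts with QoRTs. The deposited values are raw counts in a separate table for each plant. The submitters' processing notes name TAIR10, and annotation and sequences here are from TAIR10.1 (1-based). Summary rows that name no gene, which held 0.879% to 1.08% of counts per plant, were left out.

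The test was that of edgeR 4.0.16, run in R 4.3.3 (filterByExpr, TMM, quasi-likelihood F test), each comparison on its 6 plants and the interaction on 12, with p-values adjusted by Benjamini-Hochberg over all tested genes. Members and gene lists were chosen with earlier results of these data known. Values in every plant are given for members called in all 3 memory comparisons with an absolute log2 fold change over 1 in any, or called in opposite directions, or called in the interaction. Pathway genes called in all 3 with a value over 1 in each, and CO, FT, HY5 and COP1, have their values given. CDF1, CDF2, CDF5, TSF, SOC1, TPL, SPA1, CHI and the single flower and rosette markers were named after their values were seen. Replicates of a group were separate plants, and none were duplicate libraries (chi-square per degree of freedom at least 12.35 between replicates). Alternatives were RLE size factors, DESeq2 1.42.0, no filter, at least 10 counts in every plant, all 15 plants in one fit, the replicate number as a block, and each plant left out. The tests were checked on simulated counts. The deposited counts give depth per gene and plant, and SDs are between plants. Per-kb levels divide by annotated exon length, which the reads need not cover evenly. Of the 32 members, 13 overlap another annotated gene. Protein sequences were not analysed here.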

Additional observations from a re-analysis of the deposited data

Results flagged for a closer look

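The memory effect against WT differed between Gen1 and Gen5 in 5 members by the interaction test (edgeR, 12 plants). The effect in Gen5 minus that in Gen1 was 1.1225 for BBX1 (CO), -2.0626 for BBX3, 1.4404 for BBX15, 0.9629 for BBX17 and -1.1223 for BBX22 on the log2 scale. The calls of BBX15 and BBX22 held with each of the 12 plants left out, that of BBX17 held in 11 of 12, and those of BBX1 and BBX3 held in 5 of 12 each. BBX15 had 25121 ± 962 normalized counts in Gen1 WT and 9363 ± 1158 in Gen5 WT, against 26902 ± 2453 and 27391 ± 417 in the memory groups (SD, n = 3). BBX22 had 906 ± 38.7 and 1868 ± 372 in the WT groups, against 5287 ± 137 and 5039 ± 603 in memory. Each of the 5 was also called between the WT groups, whose plants are part of the interaction test. None was called between the memory groups, where 0 of 19716 genes were called. Nonmemory plants, which were not in this test, had 14128 ± 2076 of BBX15 and 1914 to 2126 of BBX22. Against nonmemory, Gen1 WT and Gen5 WT, the memory effect was 0.93, 0.11 and 1.56 for BBX15 and 1.38, 2.56 and 1.44 for BBX22.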

How the results depend on the processing

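No called log2 fold change changed sign under any alternative (0 of 1005 values), whereas 90 of 1454 values of members that were not called did, the widest being BBX30 in the interaction (0.04 to -1.81 without Gen1 WT replicate 3) and BBX31 between memory generations (-0.81 to 0.80 without Gen1 memory replicate 1). Over members, comparisons and alternatives, 2383 values kept their side of the threshold, 51 lost a call and 25 gained one. With single plants left out, the number of members called ranged from 6 to 10 in Gen1 WT vs. Gen5 WT (10 with all plants) and from 2 to 6 in the interaction (5 with all plants), lowest in both without Gen5 WT replicate 2. RLE size factors and no filter left the number of members called unchanged in all 7 tests, and no alternative scaling moved the median log2 fold change of all genes by over 0.1. The filter of at least 10 counts in every plant left out BBX30 and BBX31 from the memory comparisons against controls, and BBX29 from those against nonmemory and Gen5 WT. It called 18, 18 and 17 members in the memory comparisons, beside 21, 20 and 20 of 28 in the main fits. DESeq2 called 7 members in the interaction, adding BBX11 and BBX14. With the replicate number as a block, 20, 21 and 20 of the 28 members were called in the memory comparisons, beside 21, 20 and 20 without it. The block left 5 calls in Gen1 WT vs. nonmemory, 11 in Gen1 WT vs. Gen5 WT, 0 between memory generations and 5 in the interaction. The block ended the calls of BBX27 against nonmemory (0.61, adjusted p = 0.0535) and of BBX3 in Gen1 WT vs. nonmemory (0.76, adjusted p = 0.0542), and gave calls to BBX32 in Gen1 WT vs. memory (-1.31, adjusted p = 0.0322) and Gen1 WT vs. Gen5 WT (-1.07, adjusted p = 0.00533). The numbers were not read as a pairing, since the lowest correlation of same-numbered plants' deviations was under 0.1 in each comparison (range -0.37 to 0.52) and no comparison had all 6 plants correlate best with their own number. Depth limits BBX9, BBX10, BBX23 and BBX26, at 0 to 5.21 normalized counts, for which a difference was not detectable.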
